A study of Mus musculus with 24 samples.

Results

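The let-7 family of miRNAs was examined on 24 one-color arrays of mouse eye and brain tissue from a murine model of lens-induced myopia. Its 10 members on the array, of 1881 mouse miRNAs measured, were chosen by name, with earlier results of these data known but by no rule on measured values. They were mmu-let-7a-5p, mmu-let-7b-5p, mmu-let-7c-5p, mmu-let-7d-5p, mmu-let-7e-5p, mmu-let-7f-5p, mmu-let-7g-5p, mmu-let-7i-5p, mmu-miR-98-5p, which is the family member with another name, and mmu-let-7d-3p, which is the opposite arm of the let-7d hairpin. The prefix mmu, for mouse, is left out from here on.

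miRNAs are short RNAs that are cut from hairpin precursors by Drosha and Dicer and guide Argonaute proteins to mRNAs, mostly to their 3′ untranslated regions. The pairing depends above all on the seed near the 5′ end, so that miRNAs with a common seed are grouped in a family. The let-7 family is known for its rise as cells leave the cell cycle and differentiate. LIN28 proteins bind let-7 precursors and block their maturation in early development, and Hmga2, Lin28 and the Ras genes are among the best known let-7 targets. In the developing retina, let-7 is known to act on the timing of progenitor competence.

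All mice were of the C57BL/6J strain. In the myopia group, a −30 D lens was fixed over the right eye at 3 weeks of age and worn for 3 weeks. Naïve right eyes without a worn lens were the normal group, and the third group, known from the labels alone, had a 0 D lens. Each group has 1 array for each of 8 tissues, namely cornea, iris, crystalline lens, retina, choroid (the RPE/choroid piece of the dissection), sclera and the samples labelled SCN and LGN, which the study's text does not describe. In the normal and −30 D groups, an array of an ocular tissue holds RNA of 3 mice mixed in equal amounts. The labels give no transgene or drug. The 8 arrays of a group share 1 slide, which means that effects of the slide and of the lens cannot be told apart. Since no tissue has a second array in the same group, p-values measure only the spread between these arrays.

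The mature sequences of the 10 members are shown because the members differ by few bases, which bears on how well an array can tell them apart. They are the RefSeq mature miRNAs of the GRCm38.p6 assembly, written 5′ to 3′, with the seed (bases 2 to 8) in capitals.
let-7a-5p: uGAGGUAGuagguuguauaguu
let-7b-5p: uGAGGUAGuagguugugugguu
let-7c-5p: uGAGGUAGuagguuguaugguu
let-7d-5p: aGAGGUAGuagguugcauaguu
let-7e-5p: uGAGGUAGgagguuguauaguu
let-7f-5p: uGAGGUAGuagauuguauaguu
let-7g-5p: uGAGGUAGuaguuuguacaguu
let-7i-5p: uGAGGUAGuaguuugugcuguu
miR-98-5p: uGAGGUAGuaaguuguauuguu
let-7d-3p: cUAUACGAccugcugccuuucu

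All 10 are 22 bases long. The 9 members of the 5p arm have the seed GAGGUAG, which 11 of the 1679 mature names in the table carry, while let-7d-3p has a seed that no other name carries. With positions counted from 1 at the 5′ end and the base of let-7a-5p first, let-7c-5p differs from let-7a-5p by A19G, let-7e-5p by U9G and let-7f-5p by G12A. let-7b-5p differs by A17G and A19G, let-7d-5p by U1A and U16C, let-7g-5p by G12U and U18C, and miR-98-5p by G11A and A19U. let-7i-5p has the most differences from let-7a-5p, namely G12U, A17G, U18C and A19U. Over all 36 pairs of the 9 members the sequences differ by 1 to 6 bases, and 4 pairs differ by 1 base.

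The genes lie in clusters on several chromosomes of GRCm38.p6. The let-7a-5p sequence of Mirlet7a-1 is at chr13:48538239-48538260, that of let-7f-5p from Mirlet7f-1 at chr13:48537889-48537910 and let-7d-5p at chr13:48536078-48536099, all on the minus strand. The arm let-7d-3p is at chr13:48536024-48536045 of the same strand. On chromosome X, the let-7f-5p sequence of Mirlet7f-2 (chrX:151912353-151912374) and miR-98-5p (chrX:151913229-151913250) lie on the plus strand with 854 bases between them. On chromosome 15, let-7c-5p of Mirlet7c-2 (chr15:85706616-85706637) and let-7b-5p (chr15:85707325-85707346) lie on the plus strand with 687 bases between them. The let-7c-5p sequence of Mirlet7c-1 is at chr16:77599672-77599693 on the plus strand, 710 bases from miR-99a-5p and 46585 bases from miR-125b-5p. let-7e-5p is at chr17:17830366-17830387 on the plus strand, with 150 bases to miR-99b-5p and 429 bases to miR-125a-5p. Members without such a partner are let-7g-5p at chr9:106178846-106178867 on the plus strand and let-7i-5p at chr10:122985698-122985719 on the minus strand. For let-7a-5p, let-7c-5p and let-7f-5p, an array cannot tell which of their genes the mature miRNA came from. Of the let-7a-5p copies, only that of Mirlet7a-1 had a position in the sequences used.

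On each array, 129 to 249 miRNAs were detected, which means that at least 1 probe exceeded 3 times its own error. The summed signal of an array ranged from 35095 to 136566, and 79 miRNAs were detected on all 24 arrays. Signals were scaled to an equal 75th percentile over these 79 miRNAs, and a scaled level below is a background-subtracted brightness after this scaling. The 79 include 8 members, whose levels thus take part in setting the scale. Levels are compared for 1 miRNA between arrays, since the brightness per molecule differs from probe to probe. The tissue labels were checked against marker miRNAs. The photoreceptor cluster miR-183-5p, miR-182-5p and miR-96-5p had a summed scaled level of 14498 to 16170 in the retina. It was also 813 to 1436 in the choroid, 441 to 1094 in the sclera and 131 to 427 in the crystalline lens, against at most 8.21 in SCN and LGN. The 4 neuronal markers summed to 11068 to 12344 in the retina, 3428 to 3727 in SCN and 3749 to 4461 in LGN. Their sum was also 752 to 1202 in the choroid, 429 to 706 in the sclera and 120 to 390 in the crystalline lens. Most of the retina sum was miR-124-3p (10202 to 11409). miR-9-3p was lower there, at 746 to 868, against 1049 to 1417 over SCN and LGN. So was miR-128-3p, at 69.1 to 85.5 against 516 to 1073. miR-9-5p overlapped between retina (51.6 to 67.0) and LGN (61.0 to 77.2). In the cornea, miR-184-3p was at 29710 to 36854. As a marker of both cornea and lens, miR-184-3p was also at 11130 to 16390 in the crystalline lens. Of the corneal epithelium markers, miR-205-5p (895 to 1108) and miR-203-3p (62.1 to 71.1) were highest in the cornea. The third, miR-31-5p, was at 211 to 273 in the cornea and higher in the lens, at 321 to 370. In the crystalline lens, the striated muscle markers miR-1a-3p, miR-133a-3p and miR-206-3p went against the label, with a sum of 361 to 402, against at most 161 elsewhere. The sum of the pigment epithelium markers miR-204-5p and miR-211-5p was also highest there (1227 to 1377, against 1067 to 1211 in the iris). These markers disagreed, with miR-204-5p at 1198 to 1349 in the lens and 288 to 304 in the iris. By contrast, miR-211-5p was at 21.2 to 28.2 in the lens and 772 to 906 in the iris. The part of such RNA in the let-7 values of choroid, sclera and lens arrays was not tested.

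Of the 10 members, the 8 from let-7a-5p to let-7i-5p were detected on all 24 arrays, miR-98-5p on 18 and let-7d-3p on 1. No member spot was saturated. Among all miRNAs of an array, let-7c-5p reached rank 2 by signal, let-7b-5p rank 3, let-7a-5p rank 5, let-7i-5p rank 6 and let-7e-5p rank 9. Members held 5 of the 10 brightest places on each iris array, 3 on the SCN and LGN arrays, 2 in the retina and 0 in the lens.

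The family took up between 1.41% and 22.3% of the total miRNA signal of an array, with a median of 10.1% over the 24 arrays. In the iris, the share was 20.8% ± 0.724 on the normal array, 22.3% ± 0.715 on the 0 D array and 16.2% ± 0.647 on the −30 D array, where the error is propagated from the probe errors. In the sclera it was 18.1% ± 0.653, 14.9% ± 0.567 and 16.9% ± 0.600 in the same order. The iris and sclera ranges overlapped. The choroid had 14.6% ± 0.576, 15.1% ± 0.594 and 14.0% ± 0.574, a range that overlapped that of the sclera. In LGN the share was 10.3% ± 0.487, 9.85% ± 0.453 and 10.5% ± 0.4996, and in the retina 9.41% ± 0.374, 10.4% ± 0.398 and 9.50% ± 0.378. SCN had 8.86% ± 0.434, 9.37% ± 0.439 and 9.03% ± 0.435, below every LGN and retina array, although the nearest retina array was within 1 probe error. The cornea was lower than these on every array, at 4.01% ± 0.216, 4.42% ± 0.229 and 4.34% ± 0.224. The crystalline lens was lowest, at 1.43% ± 0.0845, 1.77% ± 0.105 and 1.41% ± 0.0850. No test was made of the share, which is a sum over the chosen members, and in such bulk samples fewer cells of a type and less RNA per cell cannot be told apart.

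**Figure D1:**
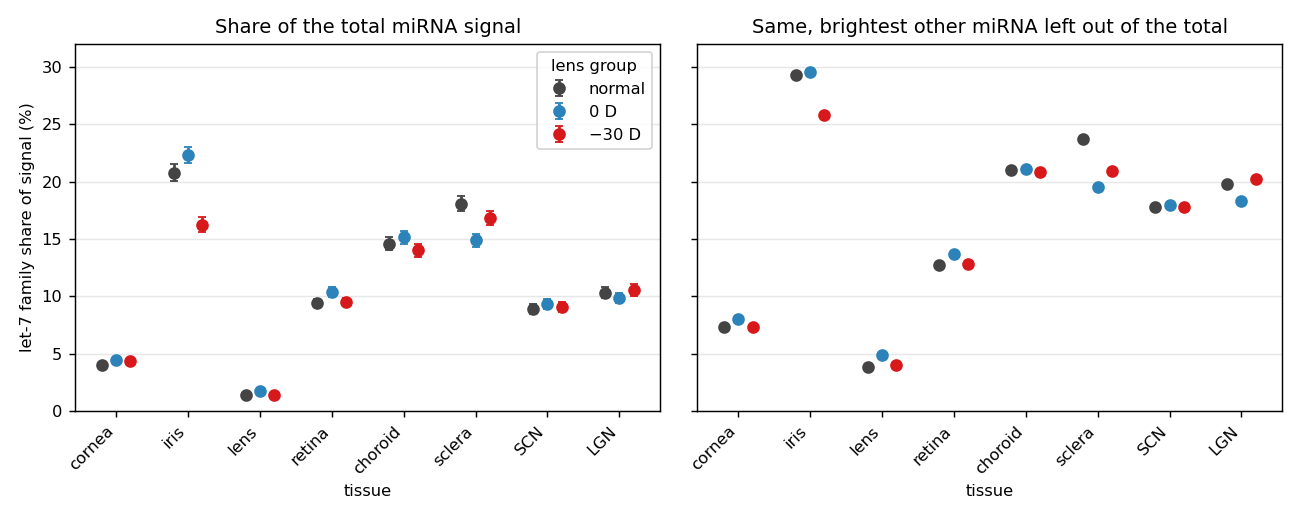
The let-7 family's share of the signal of each array, in percent, by tissue, with 1 point per array colored by lens group, of the total miRNA signal with bars for the propagated probe error (left) and of the total without the brightest other miRNA (right). On the left the lens arrays lie at 1.41% to 1.77% and the iris arrays at 16.2% to 22.3%, and on the right at 3.88% to 4.87% and 25.8% to 29.5%.

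A large piece of the spread between tissues sat in the rest of the signal. One miRNA outside the family, miR-6366, was the brightest on every array and took 63.2% to 64.8% of the signal in the lens, 40.8% to 45.4% in the cornea and 19.3% to 23.9% in the sclera. On the −30 D iris array, which had the lowest family share of the iris arrays, miR-6366 took 37.0%, against 24.5% to 29.1% on the other iris arrays. Without miR-6366 the family share was 25.8% to 29.5% in the iris, 3.88% to 4.87% in the lens, and 17.8% to 20.3% over the SCN and LGN arrays. The mean share of the iris over that of the lens was 12.9-fold with miR-6366 in the total and 6.63-fold without it. On the scaled levels, the highest tissue mean of the summed family signal was 2.25-fold the lowest, with 7663 to 8293 in the iris, 7572 to 8178 in SCN and 3379 to 3935 in the lens. SCN was thus below the retina in the share of the total and above it without miR-6366, while the lens was lowest by each of the 3 measures.

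Within the family, tissues differed in which member was bright. let-7b-5p and let-7c-5p, which lie together on chromosome 15, made up 33.5% to 55.4% of the family signal of an array, with means of 53.4% in the sclera, 53.3% in the choroid, 51.2% in the cornea and 35.2% in the retina. let-7e-5p showed the widest span of the 8 members detected on all arrays. Its part of the family signal was 13.2%, 13.4% and 14.8% on the normal, 0 D and −30 D arrays of SCN, above the highest other array (12.4% in the lens). In the cornea it was 3.39%, 3.43% and 4.21%, and the mean of SCN was 3.75-fold that of the cornea. The lens, where the family as a whole was low, had 11.3% to 12.4% let-7e-5p, and the iris 10.6% to 11.3%. Choroid and sclera overlapped, with 3.905% to 5.37% and 3.74% to 4.99%.

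let-7g-5p set the retina apart. It made up 14.4%, 15.0% and 13.8% of the family signal on the retina arrays, against 4.64% to 10.3% on the arrays of the other tissues, and the mean of the retina was 2.94-fold that of the sclera. let-7i-5p went the other way between these tissues, with 6.40% to 7.01% in the retina and 11.6% to 12.3% in the sclera, and it was highest in the iris at 13.1% to 13.7%. The ratio of let-7g-5p to let-7i-5p was accordingly 2.05 to 2.34 on the retina arrays and 0.377 to 0.430 on the sclera arrays, a range of 6.20-fold over the 24 arrays. The ratio of let-7e-5p to let-7b-5p had a range of 7.44-fold, from 0.110 to 0.147 in the cornea to 0.665 to 0.819 in SCN. By contrast, the ratio of let-7a-5p to let-7f-5p stayed within 1.34 to 1.90 on all 24 arrays and that of let-7b-5p to let-7c-5p within 0.759 to 1.38. The pairs with the small ranges lie next to each other on chromosomes 13 and 15. Another pair of the chromosome 13 cluster, let-7d-5p and let-7f-5p, had ratios of 0.578 to 1.54.

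**Figure D2:**
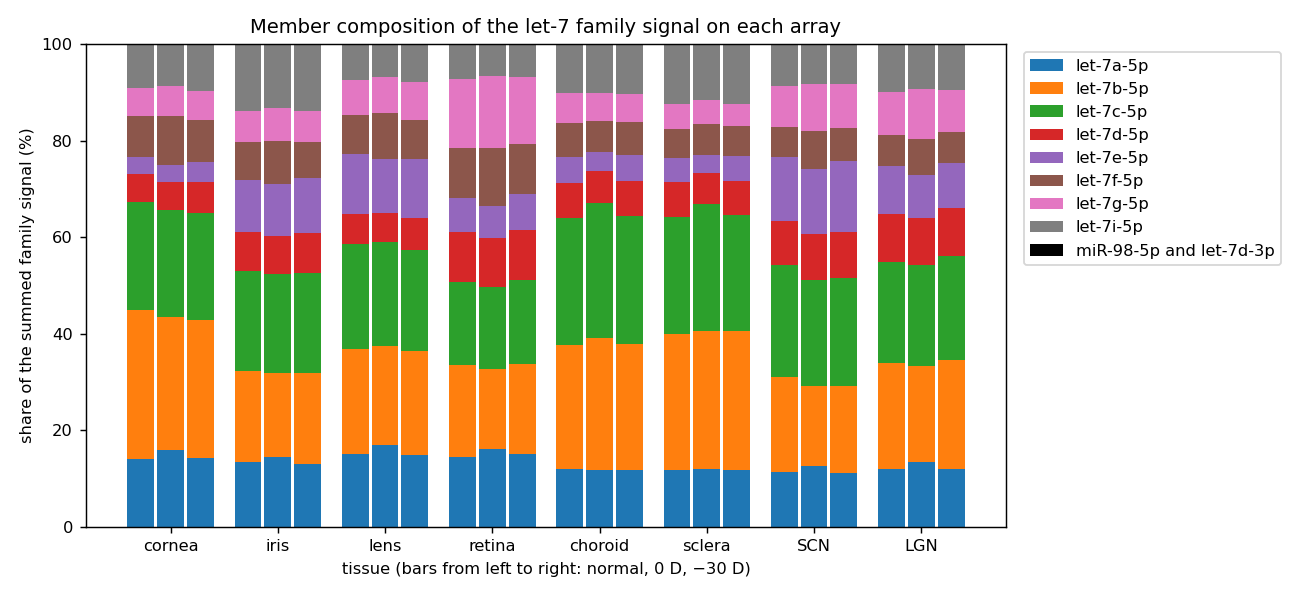
The part of the family signal held by each member, in percent, as 1 stacked bar per array, with the normal, 0 D and −30 D arrays of a tissue side by side. Retina bars show a broad let-7g-5p band (13.8% to 15.0%), SCN bars a broad let-7e-5p band (13.2% to 14.8%) and cornea bars a thin let-7e-5p band (3.39% to 4.21%).

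The levels of each member were then compared across tissues with limma, on log2 of the scaled level, with the lens group as a block. A tissue was set against the mean of the other 7, and p-values were adjusted by Benjamini-Hochberg over the 79 miRNAs of a comparison. The 8 members tested all differed between the tissues, as did all 79 miRNAs (100% called), so that the call as such says nothing particular about let-7. Of the 64 pairs of a member and a tissue, 44 passed an adjusted p of 0.05. The share of all miRNAs that passed in a tissue was 63.3% (choroid) to 89.9% (retina), with cornea and sclera at 83.5%, iris at 73.4%, lens and SCN at 86.1% and LGN at 77.2%. The called members numbered 6 of 8 for cornea, iris, retina and SCN, 7 for the lens, 5 for choroid and sclera and 3 for LGN. In the cornea and the lens these were all lower, where 39.2% and 48.1% of all miRNAs were lower, although let-7a-5p in the cornea turned to 0.0417 under quantile normalization. The 6 in the iris and the 6 in SCN were all higher, where 41.8% and 36.7% of all miRNAs were higher, as were the 3 in LGN, where 32.9% were higher. In SCN, let-7f-5p and let-7i-5p turned lower under quantile normalization and under scaling to the total signal. The retina had 4 members higher and 2 lower, against 44.3% and 45.6% of all miRNAs, but 8 higher and 0 lower without scaling, where let-7c-5p (0.60) and let-7i-5p (0.47) turned. The choroid had 3 higher and 2 lower (34.2% and 29.1% of all), and so had the sclera (41.8% in each direction). With scaling to the total signal, these became 7 higher and 0 lower in the choroid and 8 higher and 0 lower in the sclera, with let-7e-5p at 0.17 and 0.28 and let-7g-5p at 0.49 and 0.38. Without scaling the choroid had 5 higher and 0 lower. The split between higher and lower members in these 3 tissues thus depended on the scaling. The members are alike in sequence and several share a transcript, so they are not independent of each other.

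**Figure D3:**
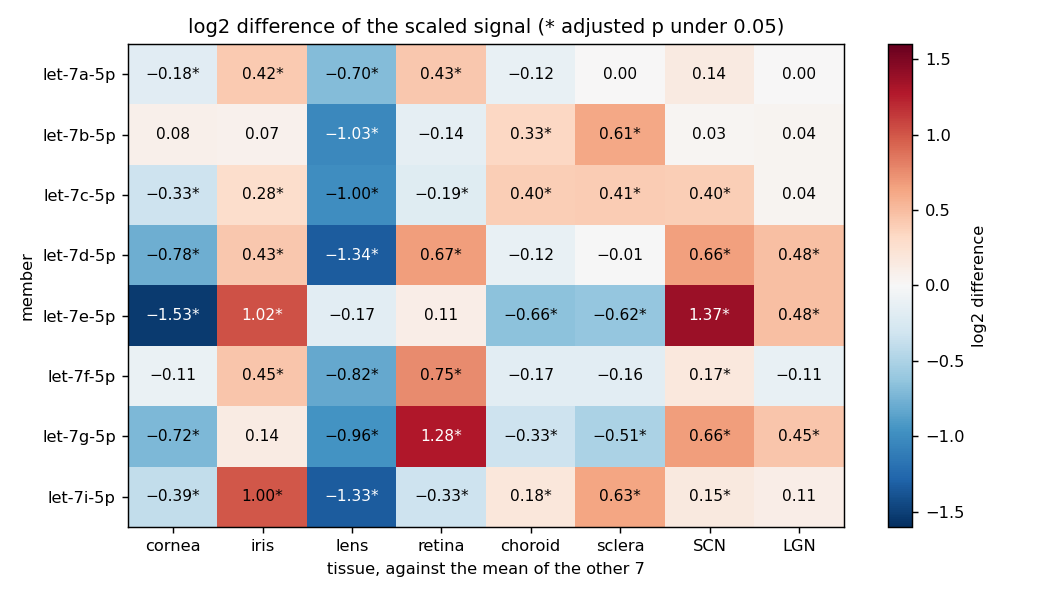
A heat map of the limma log2 difference of the scaled signal between a tissue (columns) and the mean of the other 7, for each of the 8 members (rows), with red for higher, blue for lower, the value in each field and a star where the adjusted p was under 0.05. The strongest colors are those of let-7e-5p in the cornea (-1.53) and SCN (1.37), let-7g-5p in the retina (1.28), and let-7d-5p (-1.34) and let-7i-5p (-1.33) in the lens.

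let-7e-5p, whose hairpin lies beside those of miR-99b and miR-125a, had scaled levels of 178, 179 and 208 on the normal, 0 D and −30 D cornea arrays and 1079, 1011 and 1192 on the SCN arrays. The iris was next to SCN at 884, 882 and 869. LGN (644, 564 and 699.6) and the retina (531, 500.2 and 491) came after it and did not overlap. The lens at 422, 446 and 413 exceeded the choroid at 344, 260.2 and 361, while choroid and sclera (381, 276 and 329) overlapped. In limma, the cornea was lower by a log2 difference of -1.53 ± 0.08 (SE; adjusted p = 1.38e-11) and SCN higher by 1.37 ± 0.08 (adjusted p = 6.05e-11). The differences of the lens (-0.17, adjusted p = 0.0602) and the retina (0.11, adjusted p = 0.218) did not pass the limma test. Its neighbor on the same chromosome, miR-125a-5p, had scaled levels of 234, 225 and 236 in SCN and 47.4 to 47.8 in the cornea, and Pearson's r with let-7e-5p over the 8 tissue means was 0.84. These neighbors parted in the lens, where the limma log2 difference of miR-125a-5p was 0.70 ± 0.06 against -0.17 for let-7e-5p, and in the iris, where it was 0.23 ± 0.06 against 1.02. The nearer neighbor, miR-99b-5p, had another order than let-7e-5p. Its mean scaled level was 52.5 in the iris, with SCN at 25.9, LGN at 25.7 and the choroid at 25.4, and 9.63 in the cornea on the 1 of 3 arrays that detected it.

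let-7g-5p was at 1077, 1145 and 916 on the 3 retina arrays, against at most 746 on any array of another tissue, which was the 0 D array of SCN. Its lowest levels were 249, 295 and 262 in the lens, followed by the cornea at 309.7, 326 and 297 and the sclera at 387, 368 and 307. Cornea and sclera ranges overlapped. The retina was higher by 1.28 ± 0.07 on the log2 scale (SE; limma adjusted p = 1.45e-11), and the lens was lower (-0.96). SCN and LGN were also higher, by 0.66 and 0.45.

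let-7i-5p was highest in the iris, at 1122, 1084 and 1051, with the sclera next at 938, 854 and 814. These were separated from all other tissues, whose highest value was 698 on the normal SCN array. The lens had 254, 270.4 and 268, and the retina 524, 489.8 and 446, which overlapped the cornea at 468, 452 and 481. In limma the iris was higher by 0.997 ± 0.06 (SE; adjusted p = 4.17e-10), the sclera by 0.63 (adjusted p = 1.18e-07), and the lens was lower, at -1.33 (adjusted p = 7.31e-13).

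The chromosome 13 cluster members let-7a-5p, let-7f-5p and let-7d-5p had their highest tissue mean in the retina. let-7f-5p was at 764, 924 and 688 in the retina, overlapping the iris at 641, 747 and 584, and at 275, 369 and 276 in the lens. The limma log2 difference of let-7f-5p was 0.75 in the retina, 0.45 in the iris and -0.82 in the lens. let-7a-5p followed with retina arrays at 1084, 1239.5 and 994, iris arrays at 1093, 1192 and 997 and lens arrays at 512, 663 and 502. Its log2 differences were 0.43 in the retina, which turned to -0.10 under quantile normalization, 0.42 in the iris and -0.70 in the lens. let-7d-5p was at 782, 778 and 692 in the retina, where it overlapped SCN (748, 722 and 761), and at 212, 232 and 221 in the lens. It was lower in the lens by a wider margin than let-7a-5p and let-7f-5p (log2 difference -1.34, limma adjusted p = 5.82e-13), and also lower in the cornea (-0.78). Over the 8 tissue means Pearson's r was 0.96 for let-7a-5p with let-7f-5p, the highest of any pair of members, 0.89 for let-7a-5p with let-7d-5p and 0.82 for let-7d-5p with let-7f-5p. Some pairs on different chromosomes reached like values, with 0.90 for let-7c-5p with let-7i-5p, 0.89 for let-7d-5p with let-7g-5p and 0.83 for let-7f-5p with let-7g-5p. Others were lower, down to -0.13 for let-7b-5p with let-7e-5p. The 8 tissues share arrays and scaling in these correlations.

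The chromosome 15 members had another order, with the coats of the eye first. let-7b-5p was at 2146, 2121 and 1903 in the sclera and 1645, 1815 and 1746 in the choroid, which did not overlap, and at 742, 807 and 727 in the lens. It was higher in the sclera by 0.61 and in the choroid by 0.33 on the log2 scale, and lower in the lens (-1.03). let-7c-5p was at 1862, 1933 and 1599 in the sclera, 1689, 1874 and 1788 in the choroid and 1888, 1663 and 1795 in SCN, which overlapped one another. It was higher in the sclera (0.41), the choroid (0.40), SCN (0.40) and the iris (0.28), and lower in the lens (-0.997), the cornea (-0.33) and the retina (-0.19, limma adjusted p = 0.0195, and 0.60 without scaling). Pearson's r between let-7b-5p and let-7c-5p over the 8 tissue means was 0.88. The lowest r of any pair of members was -0.13, for let-7b-5p with let-7e-5p. The mesenchymal markers miR-199a-3p, miR-214-3p and miR-140-3p, summed, were at 1119 to 1314 in the sclera and 513 to 566 in the choroid, and their part in the let-7b-5p and let-7c-5p levels was not tested.

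Over the 8 tissue means, the summed family level was most like those of miR-29a-3p (Pearson's r = 0.90), miR-30d-5p (0.86), miR-30c-5p (0.84), miR-26a-5p (0.83) and miR-361-5p (0.83) among the 67 miRNAs compared. Left out of these were the 4 miRNAs listed as transcribed with let-7 hairpins that were detected on all arrays. They had r = 0.89 (miR-100-5p), 0.68 (miR-125b-5p), 0.47 (miR-99a-5p) and 0.04 (miR-125a-5p). For miR-100-5p, the gene positions used held no let-7 gene within 100000 bases, but of the let-7a-5p copies they held only that of Mirlet7a-1. The least like were miR-3473g (-0.91), miR-7080-3p (-0.90) and miR-20a-5p (-0.88). miR-20a-5p belongs to the miR-17-92 cluster, which is known for promoting proliferation, and its mean scaled level ran from 34.7 in the sclera to 497 in the lens. miR-29a-3p, known for targeting collagen mRNAs, ran from a mean of 111 in the lens to 2230 in SCN. These correlations rest on 8 points that share the arrays and the scaling, with the lens lowest for the family.

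The lens groups were compared next, to ask whether wearing a lens changed the members. For a change common to the 8 tissues, limma was fitted with the tissue as a block, so that the tissues serve as the replicates of a lens group. The study used 3 mice in each of the normal and −30 D groups, and the ocular arrays of such a group come from the same mice. The 8 tissues are thus not independent, and the p-values and intervals do not measure the spread between mice. Between −30 D and normal eyes, none of the 8 members passed, and 0 of the 79 miRNAs passed (0%; 7 had an unadjusted p under 0.05, none of them a member). The log2 differences of the members were -0.06 to 0.02, with standard errors of 0.05 to 0.07, and their 95% intervals lay between -0.20 and 0.17. Between 0 D and normal eyes, 0 of 8 members passed, against 2 of 79 miRNAs (2.53%). At an unadjusted p under 0.05 were 22 of the 79 miRNAs and 3 of the 8 members, namely let-7f-5p (0.19 ± 0.06, limma adjusted p = 0.0831), let-7a-5p (0.13 ± 0.06, adjusted p = 0.138) and let-7e-5p (-0.14 ± 0.07, adjusted p = 0.172).

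Between −30 D and 0 D eyes, 1 of 8 members and 6 of 79 miRNAs (7.59%) passed. This member was let-7f-5p, at a log2 difference of -0.22 ± 0.06 (SE; limma adjusted p = 0.0418), with the lower value on the −30 D array in 7 of 8 tissues. LGN was among the 7 at a log2 ratio of only -0.0008. In the retina its scaled level was 924 on the 0 D array and 688 on the −30 D array, in the lens tissue 369 and 276, and in the iris 747 and 584. The normal arrays of these tissues, at 764, 275 and 641, lay nearer to those of −30 D. In the sclera alone, the normal array (470) lay nearer to that of 0 D (469) than to that of −30 D (416). The limma call was lost without the cornea (adjusted p = 0.124), iris (0.109), lens (0.0741), retina (0.0952) or SCN (0.0702) arrays, while it held without the choroid (0.0384), sclera (0.0431) or LGN (0.0457). let-7a-5p (-0.18, limma adjusted p = 0.0549), let-7e-5p (0.17, adjusted p = 0.105) and let-7g-5p (-0.14, adjusted p = 0.105) did not pass. The 3 comparisons share their arrays in pairs, and each group is 1 slide.

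The lens was worn on the eye, so the difference of the −30 D effect between the 6 ocular tissues and the SCN and LGN samples was tested itself. None of the 8 members and 0 of 79 miRNAs passed this limma interaction test (0%). Member values ran from -0.25 for let-7g-5p (unadjusted p = 0.0536, adjusted p = 0.470) to -0.08 for let-7i-5p.

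Within single tissues there is 1 array per group and no test. The 64 log2 ratios of the 8 members between −30 D and normal arrays lay between -0.33 and 0.26, with propagated errors of 0.17 to 0.20, and 0 of them exceeded 2 errors. Of the 632 ratios of all 79 miRNAs over the 8 tissues, 19.1% exceeded 2 errors and 95% lay between -0.63 and 1.11. The 8 members were all below 0 in the iris, retina and sclera and all above 0 in LGN. Between 0 D and normal arrays the members' ratios were -0.46 to 0.42 and 5 of 64 exceeded 2 errors, against 22.2% of the ratios of all miRNAs, of which 95% lay between -0.86 and 0.89. The 5 included let-7e-5p in the sclera (-0.46) and choroid (-0.40) and let-7f-5p in the lens (0.42). For −30 D against 0 D arrays they were -0.42 to 0.47, and 5 exceeded 2 errors, against 20.6% of all, with 95% of all between -0.60 and 0.95. The 8 members of an array share its scale factor, and they are among the 79 miRNAs whose percentile sets it. This can narrow their spread between arrays. In the limma tissue fits, the SD left after tissue and lens group was 0.083 to 0.129 for the 8 members. It was 0.130 to 0.197 with the percentile taken without the members.

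**Figure D4:**
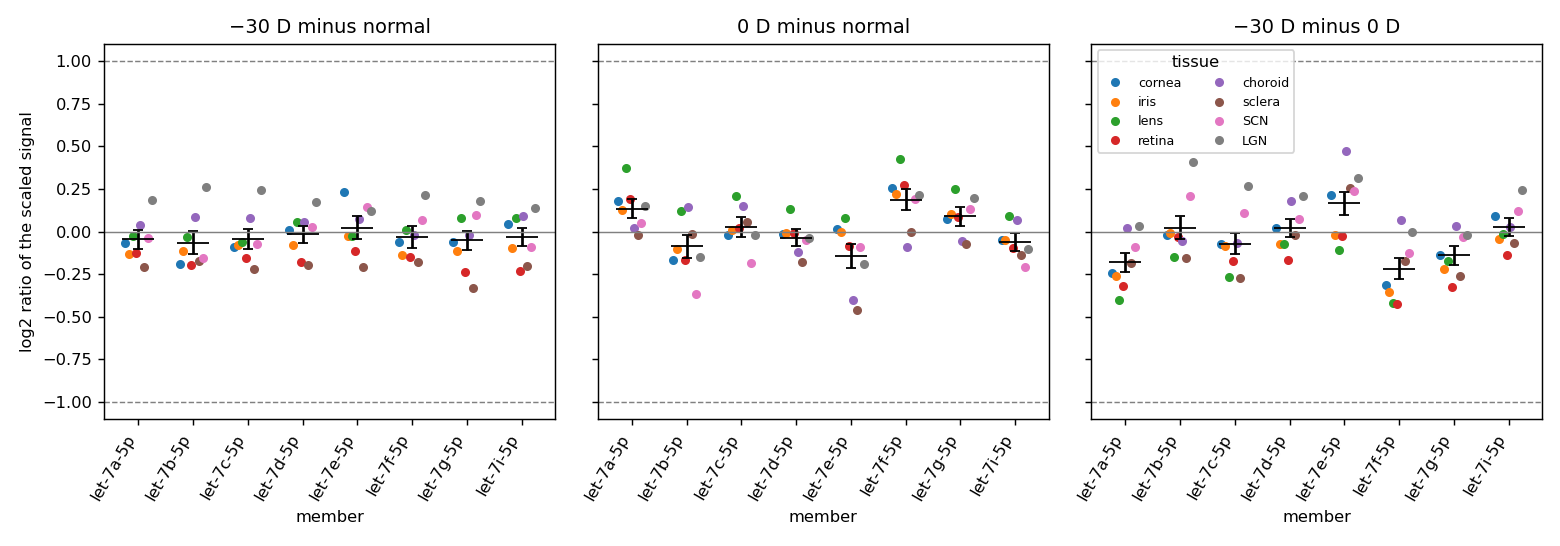
The log2 ratio of the scaled signal between lens groups for each of the 8 members, in 1 panel per comparison, with a colored point for each tissue, a black bar for the limma difference over the 8 tissues with its standard error, and dashed lines at ratios of 2 and 0.5. The −30 D to normal ratios stay between -0.33 and 0.26, those that involve the 0 D arrays reach -0.46 and 0.47, and no point is past a dashed line.

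The study took a miRNA as changed at a ratio above 2 or below 0.5 where both arrays detected it, and above 5 or below 0.2 where 1 did. Here these limits were applied to the scaled levels, with an undetected miRNA set to 0.1 as in the deposited table. In this way, 2 members passed in any tissue between −30 D and normal arrays, 1 between 0 D and normal arrays and 0 between −30 D and 0 D arrays. Among all pairs of a tissue and a miRNA that 1 or both arrays detected, 17.2%, 15.6% and 15.4% passed in these comparisons. The first were miR-98-5p, lower in the sclera, where 14.6% of miRNAs were lower, and let-7d-3p, lower in the cornea, where 3.91% were. Between 0 D and normal arrays it was let-7d-3p in the cornea again, where 6.37% were lower. These are the dimmest members, and none of the 8 bright members passed in any tissue on the scaled levels. With quantile normalization, let-7b-5p and let-7c-5p passed in the iris, at ratios of 0.425 and 0.495 of the −30 D array to both the normal and the 0 D array. Without scaling, as in the deposited table, let-7f-5p (2.11) and let-7g-5p (2.02) passed in SCN between 0 D and normal arrays.

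miR-98-5p ranked 108 to 199 among the miRNAs of the 18 arrays that detected it, and it was not detected in the cornea or the lens. Its scaled levels on the normal, 0 D and −30 D arrays were 20.1, 20.9 and 19.6 in SCN, 19.0, 19.9 and 14.8 in the iris, 15.4, 17.6 and 13.7 in the retina, 14.8, 16.3 and 14.2 in LGN and 13.8, 13.6 and 13.7 in the choroid. In the sclera they were 12.9 ± 1.91, 7.38 ± 2.01 and 6.26 ± 1.80. The sclera arrays of the lens-wearing groups were thus below all others, at log2 ratios to normal of -0.81 and -1.05 ± 0.47. This ratio rested on which of its pair of probes was counted. On the normal sclera array both probes exceeded 3 errors, with the dimmer at 5.04 ± 1.28 (3.94 errors), and on the others the dimmer probe fell short and added 0, at 3.98 ± 1.91 (2.08 errors) and 2.94 ± 1.72 (1.72 errors). The brighter probe, above the limit on all 3, was at 7.90 ± 1.42, 7.38 ± 2.01 and 6.26 ± 1.80. From the brighter probe alone, the log2 ratios to normal were -0.10 ± 0.47 for 0 D and -0.34 ± 0.49 for −30 D, within their errors, and with both probes counted without a limit they were -0.19 and -0.49. The study lists miR-98-5p among the miRNAs downregulated in the sclera of lens-induced eyes.

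**Figure D5:**
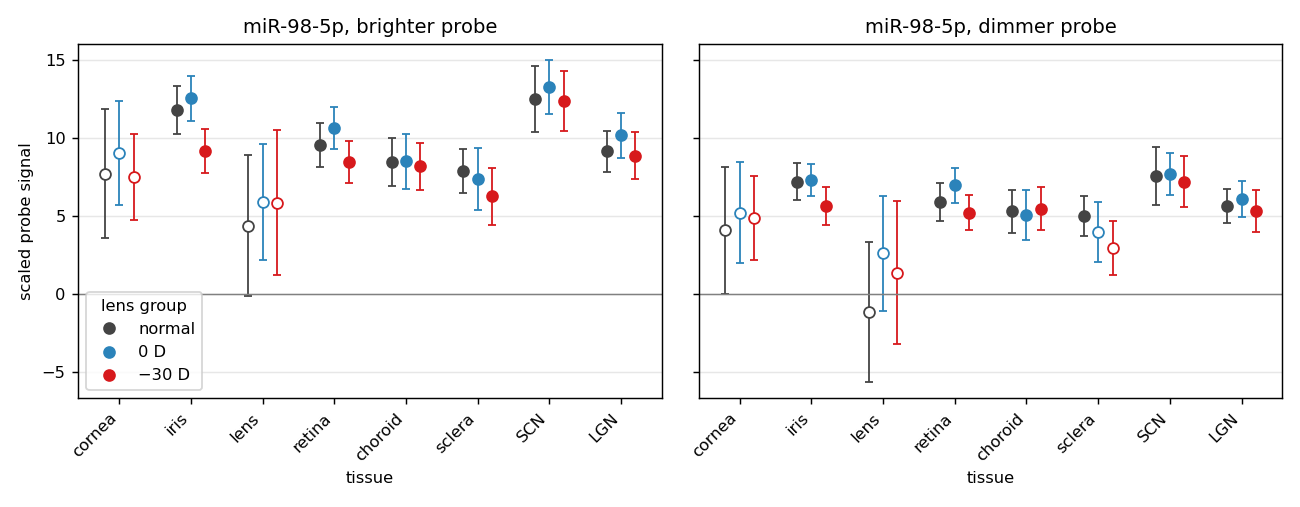
Scaled signal of the brighter (left) and the dimmer probe (right) of miR-98-5p on each array, by tissue and colored by lens group, with bars for the probe error and open points where the signal was not above 3 errors. In the sclera the brighter probe runs from 7.90 to 6.26 within its errors, and the dimmer probe is above the limit on the normal array alone.

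let-7d-3p was detected on the normal cornea array alone, at a scaled level of 6.03 ± 1.98 from 1 probe at 3.04 errors. Its other 95 combinations of probe and array were below 3 errors, with 2.56 errors as the highest. The lower bound computed for its fold was 0.379 over the −30 D and 0.311 over the 0 D cornea array, and so not above 1. The printed total signal of let-7d-3p on that array was 598, which is the 595 of let-7c-5p plus its own 3.06. Other arms and further let-7 entries were no brighter. Of 13 such entries listed, 12 had an entry of their own on the array, let-7c-2-3p being the exception, and 0 were detected on any of the 24 arrays.

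The 8 members detected on all arrays were each measured by probes of 2 designs with different brightness. The brighter gave 4.29-fold to 8.51-fold the signal of the dimmer, depending on the member. Between arrays this ratio was stable, with an SD of 0.03 to 0.16 on the log2 scale. For miR-98-5p the ratio was 1.63-fold on the 16 arrays where both exceeded 3 errors. By 1 base, let-7a-5p differs from each of let-7c-5p, let-7e-5p and let-7f-5p, and let-7b-5p differs from let-7c-5p. Some signal of a member may thus come from another, and the part of such cross-hybridization was not tested.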

How the data were processed

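Total RNA of 24 samples was labeled with Cy3 and hybridized to mouse miRNA arrays by the authors, who made the deposited intensity values with Agilent Feature Extraction 10.7.1.1. This software subtracts the background, combines the replicate spots (30 per member here) into a total signal and an error for each probe, and marks miRNAs with a probe above 3 errors as detected. The total that these files print per miRNA was not used. For 52 to 96 miRNAs per array it differed from the sum of their probes above 3 errors. On the normal cornea array, that of let-7d-3p also held the signal of let-7c-5p. In place of the printed total, the probes above 3 errors were summed. The authors' deposited table of the same intensities, unscaled and with undetected miRNAs at 0.1, differed from these sums by at most 0.001 for the members in the 16 columns compared, and 8 columns, whose names have more than 1 reading, were not used.

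Groups came from the sample labels. Signals were scaled to an equal 75th percentile over the 79 miRNAs that every array detected and put on the log2 scale, with no pseudocount. limma 3.58.1 in R 4.3.3 was fitted across these 79 miRNAs with the lens group as a block for tissues and the tissue as a block for lens groups, with Benjamini-Hochberg adjustment. The fits were tested on simulated data that had independent noise and no slide effect. Such data cannot show how the fits behave where slide and lens group coincide. Python 3.11.15 with pandas 2.3.3 served for the rest. Errors of sums and ratios were propagated from probe errors and cover these alone. The number of arrays limits the precision.

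All 10 members, the other let-7 arms, the miRNAs transcribed beside them, the most and least similar miRNAs, and the brightest other miRNA were named by rule. The members and lists were chosen with earlier results of these data known. Alternatives were other scalings, quantile normalization, normexp background correction, the printed totals, a looser filter on detection, other ratio limits, and leaving out a lens group or a tissue. A percentile without the members, the alternatives for the interaction, and the sums over all probes or the brightest probe for the ratio limits were chosen after seeing the data.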

Additional observations from a re-analysis of the deposited data

Results flagged for a closer look

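Among 27 sets of log2 ratios between lens groups, each with 1 ratio per tissue for 1 member and comparison, 2 held a tissue far from the others. Both were miR-98-5p in the sclera. Between 0 D and normal arrays its log2 ratio was -0.81, while the nearest of the other 5 tissues was at -0.02, a gap of 0.787 of the whole range. For −30 D against normal arrays it was -1.05, with the nearest tissue at -0.36 and a gap of 0.666 of the range. Chance marks about 1 in 20 such sets, and the 2 ratios share the normal sclera array, on which a second probe of miR-98-5p passed the limit of 3 errors.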

How the results depend on the processing

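The median family share, 10.1%, was 8.77% with the printed totals, 6.10% with normexp, 12.4% over the miRNAs detected on all arrays and 18.1% without the brightest other miRNA, and 9.91% to 10.1% when 1 lens group was left out. The share of the iris over that of the lens, 12.9-fold, was 9.996-fold with the printed totals, 8.94-fold with normexp, 6.63-fold without the brightest other miRNA and 12.1-fold to 13.5-fold without 1 lens group. The let-7e-5p part of SCN over the cornea, 3.75-fold, was 3.97-fold with the printed totals, 3.22-fold with normexp and 3.68-fold to 3.89-fold without 1 lens group. For let-7g-5p in the retina over the sclera, 2.94-fold became 2.79-fold with normexp and 2.91-fold to 2.99-fold without 1 lens group, and for let-7i-5p in the iris over the retina, 2.01-fold became 1.997-fold to 2.04-fold.

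Of the 44 called pairs of a member and a tissue, 28 kept direction and call under all 12 alternatives, 6 lost the call under some and 10 changed direction under some, and 38 to 40 pairs were called without 1 lens group. Among the 12, no scaling and the percentile over all miRNAs gave the same values. Scaling moved all miRNAs: the median log2 difference of the 79 was -0.37 (SCN) to 0.12 (iris) as reported, but -1.77 in the lens and -0.90 in the cornea without scaling, and -2.01 in the lens and 1.11 in the iris with the total signal. Directions changed without scaling for let-7c-5p (0.60) and let-7i-5p (0.47) in the retina and let-7g-5p in the choroid (0.16). With the total signal they changed for let-7e-5p (0.17) and let-7g-5p (0.49) in the choroid, let-7e-5p (0.28) and let-7g-5p (0.38) in the sclera, and let-7f-5p (-0.0835) and let-7i-5p (-0.10) in SCN. With quantile normalization they changed for let-7a-5p in the cornea (0.0417) and retina (-0.10), and for let-7f-5p (-0.14) and let-7i-5p (-0.16) in SCN.

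No member was called between −30 D and normal eyes under any alternative run. Between 0 D and normal eyes, 4 members were called without scaling, 1 with quantile normalization, and 0 without 1 tissue. The percentile over all miRNAs also gave 4, since it is the 0.1 of undetected miRNAs on every array and leaves the values unscaled. Between −30 D and 0 D eyes, where 1 was called, 4 were called without scaling and with that percentile, 3 with normexp and 2 with quantile normalization. None was called with the total signal, the looser filter, the printed totals, the percentile without the members or the 6 ocular tissues alone, that is 0 in each, and 0 to 2 without 1 tissue. The adjusted p of let-7f-5p ranged from 0.0103 with normexp to 0.349 with the looser filter. Members past the study's limits between −30 D and normal arrays were 4 with quantile normalization and 1 with the total signal, with a ratio limit of 3, with all probes summed or with the brightest probe. Between 0 D and normal arrays they were 4 without scaling, 2 with quantile normalization and 2 with the total signal, and between −30 D and 0 D arrays 1 without scaling and 2 with quantile normalization. The causes were not tested. miR-98-5p and let-7d-3p lie close to the detection limit, which limits what can be said of them.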

Other observations

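In the comparison of 0 D with normal eyes, the members lay in an order close to that of the G and C bases in their sequences. let-7f-5p, with 7 such bases, was at a log2 difference of 0.19, let-7a-5p with 8 at 0.13, let-7b-5p with 10 at -0.09, and let-7e-5p with 9 at -0.14. Pearson's r of the difference with the number of G and C bases was -0.87 over the 8 members and -0.48 over the 60 miRNAs outside the family that were detected on all arrays and matched to a sequence (68 of the 79, or 86.1%, matched in all). Between −30 D and 0 D eyes r was 0.77 over the members and 0.63 outside the family. Between −30 D and normal eyes it was -0.01 over the members and 0.21 outside the family. These miRNAs, measured on the same arrays, are no independent points, and the comparisons share arrays. The part of base composition, or of the slide that each lens group shares, in these values was not tested.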
